A study of Mus musculus with 4 samples.

Results

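The loci described here are those of 10 genes of the effector response of T cells: the cytokine genes Il4, Il13, Ifng, Il10, Il2, Il17a and Csf2, the granzyme genes Gzma and Gzmb, and Rad50, a DNA repair gene that lies among the cytokine genes of chromosome 11. A peak was taken as belonging to a locus when its midpoint lay in the RefSeq gene body or within 100 kb on either side. This gave 3 of the 4246 peaks of the NKT library and 5 of the 5198 peaks of the PLZF-transgenic library, and the 10 genes are among 21887 nuclear protein-coding genes. The study mapped where PLZF, the zinc finger factor encoded by Zbtb16, sits on DNA in mouse thymocytes, by pull-down of PLZF-DNA complexes on streptavidin beads. Both libraries came from thymus of mice on a C57BL/6 background that carried the PLZF and BirA transgenes, BirA being the bacterial biotin ligase. The NKT library came from PLZF tg/BirA tg/Valpha14 tg mice, which carry in addition the alpha chain that marks the invariant T cell receptor. The PLZF-transgenic library, labelled Tg thy, came from PLZF tg/BirA tg mice without the Valpha14 transgene. Both are labelled as thymocytes, and no sorting of natural killer T cells is stated. The sources used here do not give the promoters of the transgenes or the age, sex and number of the mice. Each group had 1 ChIP library and no replicate, so no difference between the libraries can be tested. The other 2 of the 4 samples are inputs, not analysed here, and none is a pull-down without the PLZF transgene, so a peak need not mark PLZF.

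Invariant natural killer T cells secrete cytokines such as interleukin-4 and interferon gamma within hours of stimulation, a property they share with memory cells although they acquire it in the thymus. PLZF is required for this innate-like effector state. The genes for interleukin-4 and interleukin-13 are neighbours and are controlled together with Il5, in part by a locus control region that lies within Rad50. The gene for interferon gamma stands alone and is controlled by conserved elements spread over a long distance on both sides of it.

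None of the 10 gene bodies held a peak in either library. Among all protein-coding genes, 7.18% had a peak in the body in the NKT library and 8.37% in the PLZF-transgenic library. With 100 kb on either side, 2 of the 10 loci held a peak in the NKT library, Rad50 and Gzma, where 37.2% of all protein-coding genes did. Of the 10 loci, 3 held one in the PLZF-transgenic library, Rad50, Gzma and Csf2, where 41.7% of all protein-coding genes did. The shares of the members, 20% in the NKT library and 30% in the PLZF-transgenic library, are thus below those of genes in general. The 10 loci are too few to read that as a property of these genes, and the windows of Il4, Il13 and Rad50 overlap. The same 2 loci, Rad50 and Gzma, held a peak in both libraries, as did 31.0% of all protein-coding genes. Among protein-coding genes with a body of at most 10 kb, as 9 of the 10 have, 32.0% had a peak within 100 kb in the NKT library (1 of the 9 members) and 35.3% in the PLZF-transgenic library (2 of the 9). Il4, Il13, Ifng, Il10, Il2, Il17a and Gzmb, 7 of the 10, held no peak in either library, and 52.2% of all protein-coding genes likewise had none in either. All peaks of the other 3 loci were distal, and none had a member as its nearest protein-coding gene. The windows of Rad50, Csf2 and Gzma hold 6, 2 and 4 other protein-coding genes. How often a window peak is nearest to the gene of its window was not computed for all protein-coding genes. The lack of such peaks therefore cannot be read as a property of the members.

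**Figure D1:**
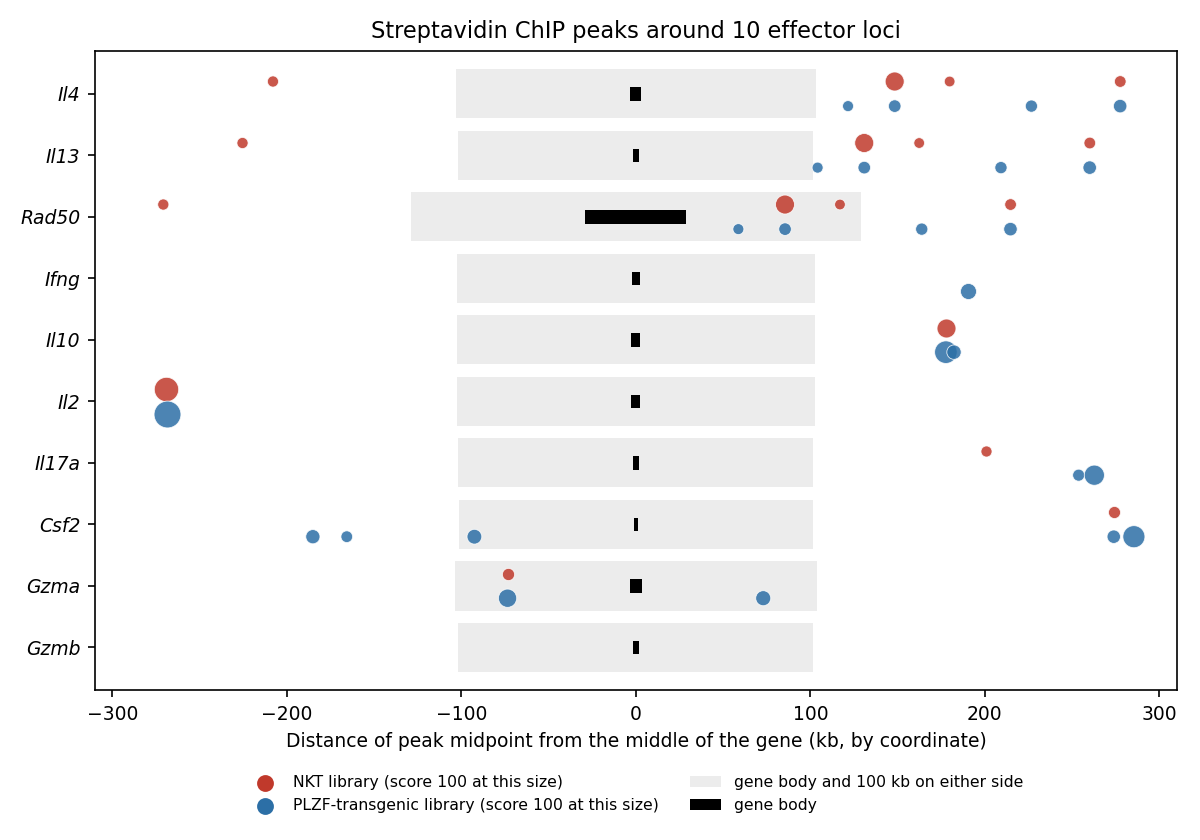
Peak midpoints by distance in kb from the middle of each gene, in the NKT library (upper row of each locus) and the PLZF-transgenic library (lower row), with the marker area in proportion to the deposited score. Every gene body, in black, is free of peaks, and only the grey windows of Rad50, Csf2 and Gzma hold any.

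RefSeq promoter sequences of GRCm38.p6 were matched for 8 of the 10 members, and no peak overlapped any of them. In the NKT library 2.42% of 17492 protein-coding genes with such a sequence had a peak on it, and in the PLZF-transgenic library 3.28%. Rad50 and Il10 were not matched. The 250 bases before the start are shown for a pair of cytokine genes of the chromosome 11 cluster, for the gene of interferon gamma and for a granzyme gene, as the stretches at which neither library listed a peak. They are written in the direction of transcription, with the matches to the searched motifs in capitals.
Il4, chr11:53618666-53618915, minus strand: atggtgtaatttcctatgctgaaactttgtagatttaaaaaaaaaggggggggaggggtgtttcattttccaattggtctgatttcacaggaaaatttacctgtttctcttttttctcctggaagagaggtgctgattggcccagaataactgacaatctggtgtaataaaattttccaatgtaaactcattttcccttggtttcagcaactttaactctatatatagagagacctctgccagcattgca
Il13, chr11:53634703-53634952, minus strand: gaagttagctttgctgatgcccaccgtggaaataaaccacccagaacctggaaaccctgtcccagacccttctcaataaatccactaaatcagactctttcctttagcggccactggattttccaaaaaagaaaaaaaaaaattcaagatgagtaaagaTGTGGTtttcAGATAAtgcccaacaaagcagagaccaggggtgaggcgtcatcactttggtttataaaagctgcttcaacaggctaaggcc
Ifng, chr10:118440796-118441045, plus strand: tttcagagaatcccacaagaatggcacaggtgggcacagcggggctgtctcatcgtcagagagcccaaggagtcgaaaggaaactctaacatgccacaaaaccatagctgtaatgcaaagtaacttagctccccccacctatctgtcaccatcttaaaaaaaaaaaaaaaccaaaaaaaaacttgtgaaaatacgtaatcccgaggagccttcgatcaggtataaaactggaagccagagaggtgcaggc
Gzmb, chr14:56262335-56262584, minus strand: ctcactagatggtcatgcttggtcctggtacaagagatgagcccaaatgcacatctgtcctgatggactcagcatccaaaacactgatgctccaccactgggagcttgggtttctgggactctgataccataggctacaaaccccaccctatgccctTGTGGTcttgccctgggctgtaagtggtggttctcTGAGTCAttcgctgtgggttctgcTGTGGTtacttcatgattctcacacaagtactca

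The motifs searched, on both strands, were TGTGGT of RUNX factors, AGATAA of GATA factors, TGACTCA and TGAGTCA of AP-1, and CCGGAA of ETS factors. Runs that match by letters are a description and not binding sites. The 8 matched members have 9 promoter entries, since Il4 has a pair of annotated starts. The RUNX letters were in 4 of the 9 entries (Il13, Il17a, Gzma and Gzmb) and in 14.0% of all 32851 promoters of the table. The GATA letters were in 2 entries (Il13 and Csf2) against 9.99% of all promoters, the AP-1 letters in 1 (Gzmb) against 4.46%, and the ETS letters in 0 against 12.0%. The Il4 and Ifng stretches shown hold none of these letters, which says nothing about the factors. The nearest peak lay 145 kb from the Il4 stretch in the NKT library and 118 kb in the PLZF-transgenic library. For the Ifng stretch these distances were 318 kb and 192 kb, and for the Gzmb stretch 538 kb and 382 kb.

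On chromosome 11 the windows of Il4, Il13 and Rad50 overlap and form 1 stretch of 295 kb. Il4 (53612460 to 53618665) and Il13 (53631323 to 53634702) encode the cytokines that drive IgE responses and responses to worms, and Rad50 (53649519 to 53707319) encodes a subunit of the complex that senses DNA breaks. Each held 0 peaks in its body in both libraries, so no peak lay in Rad50, where the locus control region of the cluster is. All peaks of the stretch lay beyond Rad50 on the side away from Il4, towards Il5 and Irf1. The window of Rad50 held 2 peaks in each library, and those of Il4 and Il13 held none.

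The highest-scoring NKT peak of the 10 loci was at the site upstream of Irf1, the gene of interferon regulatory factor 1. The highest-scoring window peak of the PLZF-transgenic library was another, near Cdc20b in the window of Gzma. In the NKT library the peak lay at 53763673 to 53764102, with a width of 430 bp and a deposited score of 166, higher than 83.8% of the peaks of that list. In the PLZF-transgenic library it lay at 53763755 to 53764067, with a width of 313 bp and a score of 72.8, higher than 26.5% of the peaks of that list. The site is thus in the upper part of 1 list and the lower part of the other, a description of each list that shows no change between them. The NKT peak contains the whole PLZF-transgenic peak, and their midpoints were 24 bp apart. The midpoints lay 6.13 kb and 6.10 kb before the start of Irf1, and 56.6 kb from Rad50 in both libraries. The nearest annotated sequence is the hairpin of the microRNA gene Mir7671, which ends 19 bp before the NKT peak and 101 bp before the PLZF-transgenic peak and is shown as the landmark of the site.
Mir7671 hairpin, chr11:53763597-53763654, minus strand: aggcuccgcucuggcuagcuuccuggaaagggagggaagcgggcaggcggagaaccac

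The other peaks in the Rad50 window were close to the lowest scores listed, 50.02 in the NKT library and 50.03 in the PLZF-transgenic library. In the NKT library a peak of 153 bp and score 52.7 lay at 53795315 to 53795467, inside the noncoding gene Gm12216, 17.0 kb past the end of Irf1 and 88.1 kb from Rad50. In the PLZF-transgenic library a peak of 286 bp and score 55.6 lay at 53737021 to 53737306. Its nearest protein-coding gene was Il5, the gene of the eosinophil growth factor interleukin-5, whose end was 12.1 kb away, and it was the peak closest to any of the 10 genes, 29.8 kb from Rad50. Neither peak overlapped one in the other list. The same peak lay 102 kb from Il13 and 118 kb from Il4, so Il13 missed the 100 kb limit narrowly. The peaks just inside the limit were that in Gm12216 and the Csf2 peak described next.

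**Figure D2:**
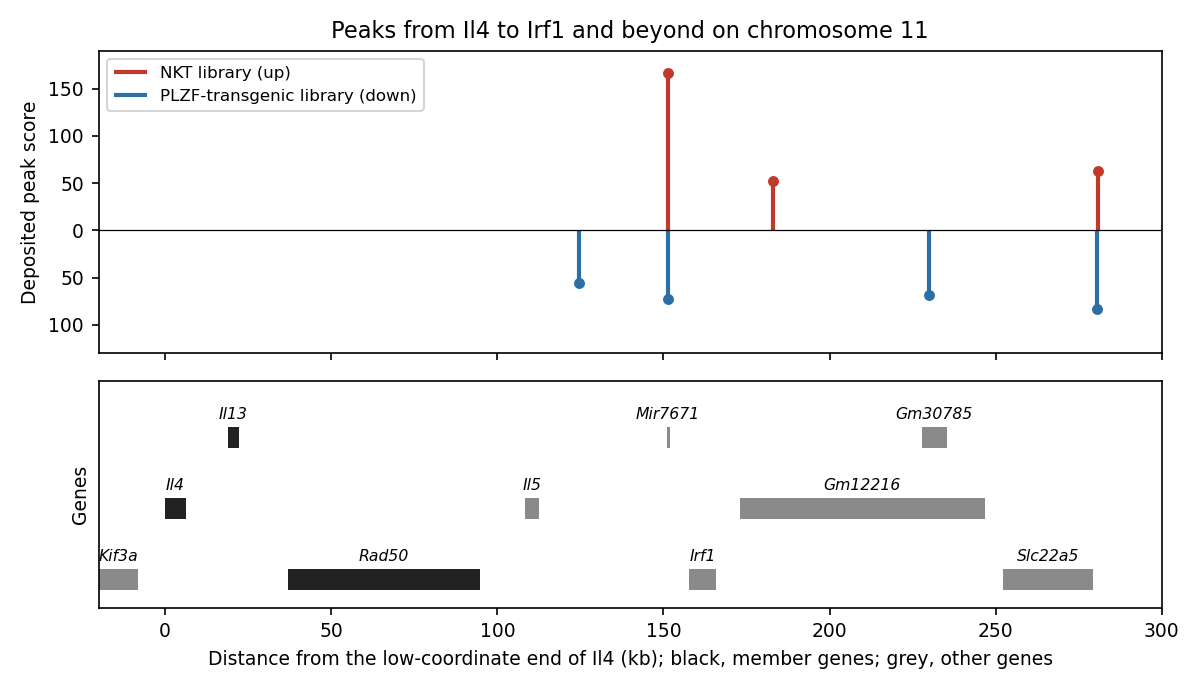
Deposited score of each peak in the NKT library (upward) and the PLZF-transgenic library (downward) by distance in kb from the low-coordinate end of Il4, above the protein-coding, long noncoding and microRNA genes of the stretch (pseudogenes not drawn). The peak nearest to Il4 lies past Il5, and the highest NKT peak, of score 166, lies before Irf1.

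Csf2 (chromosome 11, 54247270 to 54249899) encodes the growth factor GM-CSF. Its window held no peak in the NKT library, where the nearest peak was 273 kb away, close to Rapgef6. In the PLZF-transgenic library it held 1 peak, at 54155862 to 54156204, of 343 bp and score 101, which was higher than 44.9% of that list. This peak lay 91.2 kb from Csf2 inside the noncoding gene Gm12223, whose annotated span also covers Csf2, and its nearest protein-coding gene was P4ha2, an enzyme of collagen synthesis, at 24.4 kb.

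Gzma (chromosome 13, 113093824 to 113100981) encodes granzyme A, a protease of the granules of killer cells. In both libraries its window held a site on the side of Cdc20b, a gene related to a cell cycle regulator. The NKT peak there lay at 113023843 to 113024028 and had a width of 186 bp and a score of 69.2, and the PLZF-transgenic peak lay at 113023584 to 113024123 and had a width of 540 bp and a score of 154. The NKT peak lay wholly within the PLZF-transgenic peak and covered 34.4% of it. The site was 69.9 kb and 70.0 kb from Gzma, the NKT distance first, and 11.04 kb and 11.12 kb before Cdc20b. The window held a further peak in the PLZF-transgenic library, at 113170190 to 113170602, of 413 bp and score 104. It lay 69.4 kb from Gzma and 1.23 kb past the end of Gzmk, the gene of granzyme K, which made it the peak closest to a granzyme gene. The nearest NKT peak to Gzmk was 148 kb away.

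In the windows, 2 of the 3 NKT peaks had a counterpart in the other list (66.7%, with 9.43 to 99.2% as the exact 95% interval), and 2 of the 5 PLZF-transgenic peaks had one (40.0%, 5.27 to 85.3%). Over the whole lists the shares were 60.7% and 45.7%. The intervals cover counting error only. The median score of the window peaks was 69.2 in the NKT library and 101 in the PLZF-transgenic library, where the medians of the whole lists were 73.8 and 111. The merged windows of the 10 loci covered 1.73 Mb, with 1.74 peaks per Mb in the NKT library and 2.90 in the PLZF-transgenic library. The merged windows of all protein-coding genes had 2.05 and 2.56 peaks per Mb.

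For Il2 and Il10, 2 of the 7 loci without a peak, the nearest one was a site that both lists held at another gene. For Il2 (chromosome 3, 37120713 to 37125954), the gene of the T cell growth factor interleukin-2, it was a site nearest to 4932438A13Rik, 267 kb away with a score of 273 in the NKT library and 266 kb away with a score of 333 in the PLZF-transgenic library. For Il10 (chromosome 1, 131019845 to 131024970), which encodes an anti-inflammatory cytokine, it was a site inside Rassf5, a gene of lymphocyte adhesion signalling, 175 kb away in both libraries with scores of 165 in NKT and 234 in PLZF-transgenic. For the other 5 loci the nearest peak was not the same site in both libraries.

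Ifng (chromosome 10, 118441046 to 118445894) had its nearest NKT peak at 319 kb, with a score of 172 and closest to Mdm1. Its nearest PLZF-transgenic peak was at 188 kb, with a score of 118, and lay in a stretch where Ifng itself was the nearest protein-coding gene. Il17a (chromosome 1, 20730905 to 20734496), which encodes interleukin-17A, had its nearest NKT peak at 199 kb with a score of 56.5, inside Paqr8. Its nearest PLZF-transgenic peak was at 252 kb with a score of 66.3. Gzmb (chromosome 14, 56258836 to 56262334), which encodes granzyme B, was the farthest from any peak, at 534 kb in the NKT library and 379 kb in the PLZF-transgenic library.

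Over the 10 genes, the distance to the nearest peak had a median of 187 kb in the NKT library (56.6 to 534 kb) and of 147 kb in the PLZF-transgenic library (29.8 to 379 kb). The median of all protein-coding genes was 183 kb and 151 kb. In each library 5 of the 10 genes were farther from a peak than that median and 5 were closer, so by this measure the members lay about as far from peaks as genes do in general. Il4, Il13 and Rad50, all among the closer genes, had the same nearest peak within each library. They are not separate observations in this split. The order from near to far was Rad50, Gzma, Il13, Il4, Il10, Il17a, Il2, Csf2, Ifng and Gzmb in the NKT library. In the PLZF-transgenic library it was Rad50, Gzma, Csf2, Il13, Il4, Il10, Ifng, Il17a, Il2 and Gzmb. With 1 library each, no neighbours in either order can be said to differ.

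**Figure D3:**
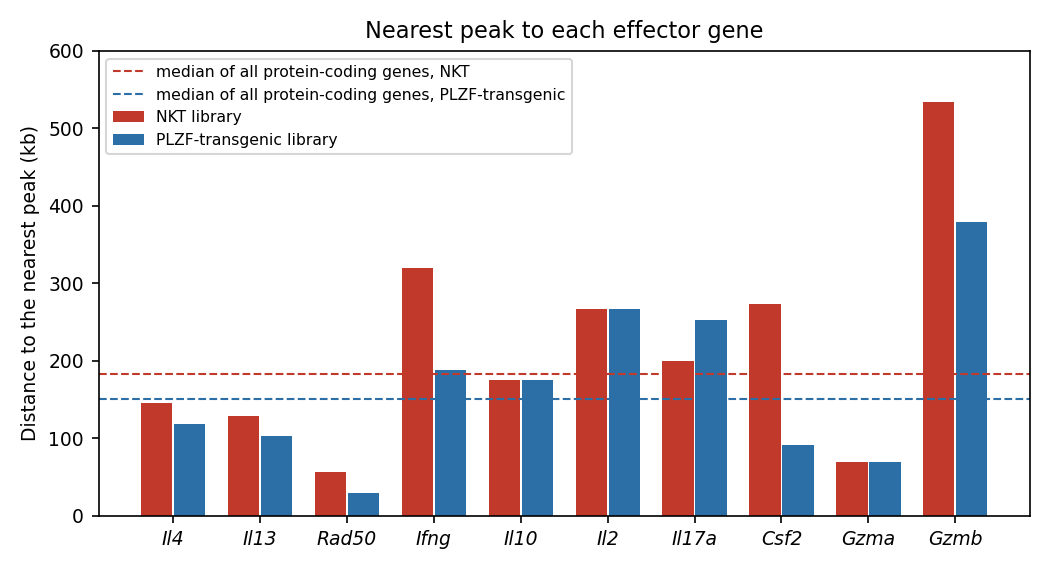
Distance in kb from each gene body to the nearest peak midpoint in the NKT library (left bars) and the PLZF-transgenic library (right bars), with the median of all protein-coding genes as dashed lines. Rad50 and Gzma are nearest to a peak and Gzmb is farthest, at 534 and 379 kb.

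The window decided how many loci were counted. With 10 kb on either side 0 of the 10 held a peak in either library, where 13.0% of all protein-coding genes did in the NKT library and 15.6% in the PLZF-transgenic library. With 50 kb, 0 held one in the NKT library (26.3% of all protein-coding genes) and 1, Rad50, in the PLZF-transgenic library (30.3%). With 200 kb, 6 held one in the NKT library (52.0%) and 7 in the PLZF-transgenic library (56.1%). Up to 100 kb the share of the members was below that of all genes in both libraries, and at 200 kb it was above it. The windows of Il4, Il13 and Rad50 share peaks at 200 kb, so they are not separate observations.

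**Figure D4:**
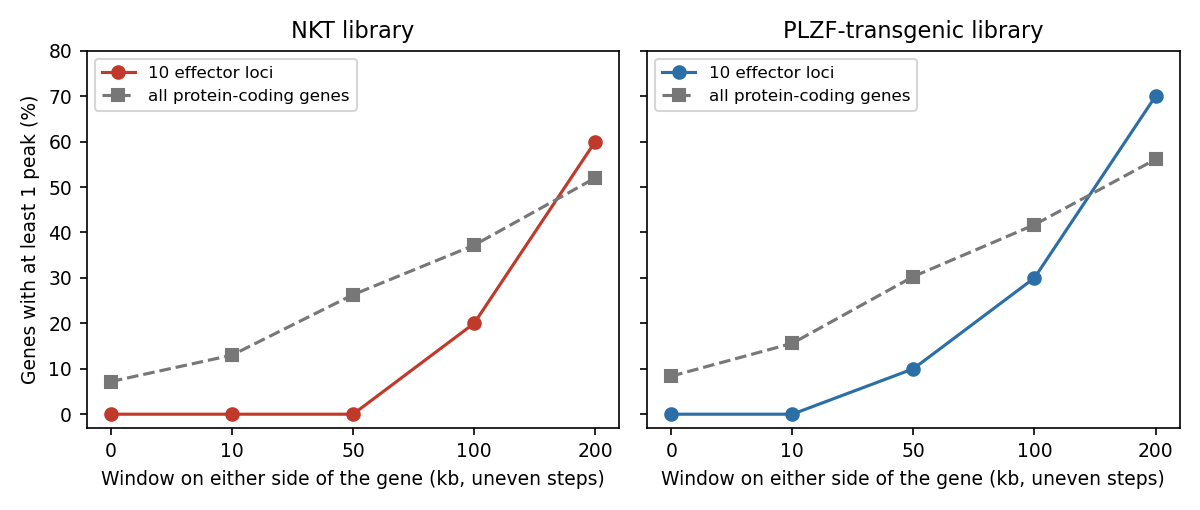
Share in percent of the 10 effector loci (circles) and of all protein-coding genes (squares) with at least 1 peak, by window in kb on either side of the gene body, in the NKT library (left) and the PLZF-transgenic library (right). The members are at 0 at 10 kb in both panels and pass the share of all genes at 200 kb, where 6 and 7 of the 10 hold a peak.

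Other genes of the effector response were read in the same 100 kb windows. Of 35 further cytokine, chemokine and granule genes, 12 held a peak in the NKT library and 17 in the PLZF-transgenic library, all 12 being among the 17, and 18 held none in either. These shares, 34.3% and 48.6%, are close to the 37.2% and 41.7% of all protein-coding genes. The 35 genes are not separate observations, since neighbours share peaks. Tnf, Lta and Ltb each held 6 in the NKT and 10 in the PLZF-transgenic library, with the same highest scores. Il5 and Gzmk were counted on peaks already given for the windows of Rad50 and Gzma. Several of the peaks counted lay in another gene. For Prf1, the gene of the pore-forming protein perforin, the highest-scoring peak in the window (183 in NKT, 362 in PLZF-transgenic) was inside Adamts14, 63.3 kb away in both. A peak also lay 0.092 kb from Prf1 in the PLZF-transgenic library, where the NKT library had none closer than 63.3 kb. For Tgfb1, the gene of an inhibitory cytokine, the highest peak (194 and 817, NKT first) was inside Bckdha, and for Il22 (172 and 551) it was 82.5 kb and 82.6 kb away, nearest to Mdm1. Tnfsf11, the gene of RANKL, was the nearest protein-coding gene to its highest peak in both libraries, 48.8 kb and 48.7 kb away. It also held a peak of lower score in its body in both. Of the 35 genes, 2 held a peak in the body in the NKT library, Tnfsf11 and Lta. In the PLZF-transgenic library 4 did, these and Tnf and Serpinb9. The shares of all protein-coding genes were 7.18% and 8.37%. Gzmk and the chemokine gene Ccl3 held a peak in the PLZF-transgenic library alone, that of Ccl3 at 8.11 kb with a score of 85.6 that the window of its neighbour Ccl4 shares. Areg, Ccl1, Ccl5 and Cd40lg were among the genes that, like most members, held none in either.

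Receptors of the member cytokines and transcription factors known to act at these loci were read in the same way. Of 14 receptor genes, 11 held a peak within 100 kb in each library (78.6%), 10 of them in both, where 37.2% of all protein-coding genes did in the NKT library, 41.7% in the PLZF-transgenic library and 31.0% in both. The 14 are not all separate observations, since the windows of Il2rb and Csf2rb shared their highest PLZF-transgenic peak, of score 175. Il4ra held 7 peaks in each library, the highest of them inside the gene, while its ligands' genes Il4 and Il13 held none. Il2ra, for the alpha chain of the interleukin-2 receptor, held 6 in the NKT and 5 in the PLZF-transgenic library, and Ifngr1, for a chain of the interferon gamma receptor, 4 and 7. Il10ra held 1 and 4, and the highest of these lay inside Tmprss4. Csf2ra held peaks in the NKT library alone (2), Csf2rb in the PLZF-transgenic library alone (2), and Il13ra1 and Il13ra2 in neither. Of 12 transcription factor genes, 8 held a peak in the NKT library (66.7%) and 9 in the PLZF-transgenic library (75.0%), 6 of them in both, against the same shares of all genes.

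Among these factors, Stat6, which relays the interleukin-4 signal, held 1 peak in the NKT and 4 in the PLZF-transgenic library. The NKT peak lay 7.93 kb from Stat6 and nearest to Nab2, and the closest PLZF-transgenic peak lay inside Stat6. Runx3 held 3 and 2, with the highest Runx3 scores of 255 in NKT and 84.3 in PLZF-transgenic at 40.1 kb in both. Prdm1, a repressor of Il2, held 1 and 2. Tbx21, the activator of Ifng, had 1 peak in the NKT library alone, of score 50.8, close to the lowest NKT score listed, 50.02. The nearest protein-coding gene of that peak was Sp6. In the PLZF-transgenic library the nearest peak to Tbx21 lay 101 kb away, so it missed the 100 kb limit narrowly. Nfatc2 held peaks in the NKT library alone (2), Eomes and Zbtb7b in the PLZF-transgenic library alone (1 each), and Maf in neither. The Eomes peak lay 81.4 kb from that gene, and the Zbtb7b peak lay inside Flad1. Gata3, the activator of Il4 and Il13, also had a peak in the PLZF-transgenic library alone, inside the gene with a score of 53.2, and is named after its values were seen. The lists differ from the members in gene length and neighbours, and no difference between lists was tested.

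**Figure D5:**
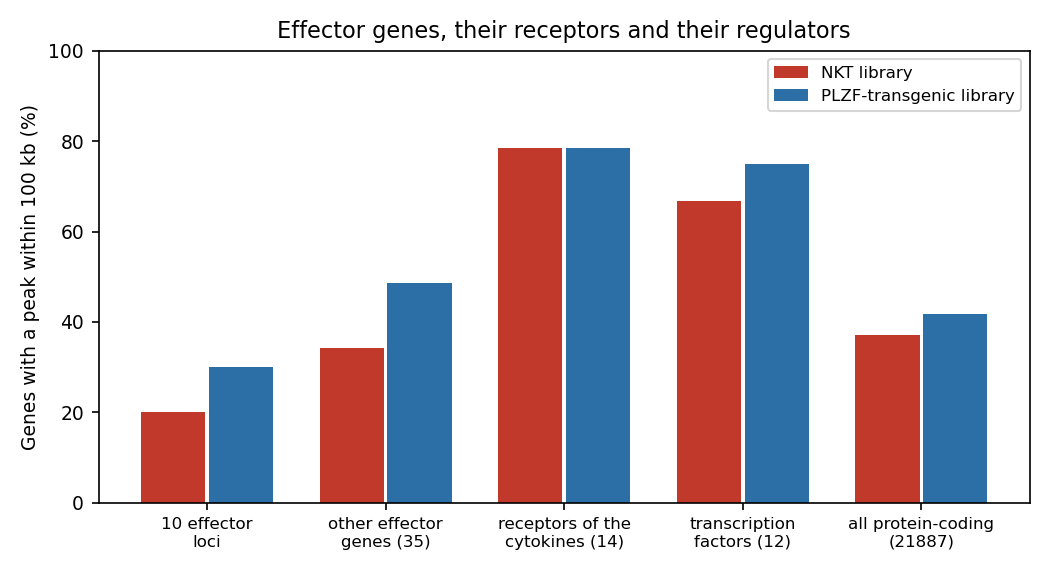
Share in percent of genes with at least 1 peak within 100 kb, for the 10 effector loci, 35 other effector genes, 14 receptors, 12 transcription factors and all 21887 protein-coding genes, in the NKT library (left bars) and the PLZF-transgenic library (right bars). The effector loci are at 20 and 30%, and the receptors at 78.6% in both.

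Peak lists hold no expression, so the labelled cell type could be checked only for peaks near marker genes. All 5 T cell markers held a peak within 100 kb in both libraries, and so did all 3 B cell markers and 31.0% of all protein-coding genes. Of 3 myeloid markers 1 did in each library, and of 3 thymic stroma markers 1 in the NKT library and 0 in the PLZF-transgenic library, where 37.2% and 41.7% of all protein-coding genes did. A window of this size takes in neighbouring genes, so these counts do not tell cell types apart.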

How the data were processed

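Per the labels' protocols, PLZF-DNA complexes from sonicated thymocyte nuclei were isolated on streptavidin beads. Per the submitters' processing notes, Bowtie, Picard and HOMER were used with build mm10. The sources used here do not give versions, the control for peak calling or any pooling. The authors deposited 1 peak list per ChIP library, with a score for each peak and no header. The peak names begin with MACS, whose early versions wrote -10 times log10 of the p-value in this column, but no source states this. Scores grow with depth, and depth is unknown, so scores are given per list only. The input libraries were not analysed here.

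Starts were raised by 1 base. Genes came from the RefSeq table of GRCm38.p6, the assembly of mm10, and all 10 members were matched. Distances run from the peak midpoint to the gene body, and 0 is inside it. Peaks counted as overlapping from 1 bp. Shares have exact (Clopper-Pearson) 95% intervals. With 1 library per group there is no test, and counts of loci are read beside the share of all protein-coding genes. Counting was tested on simulated data. Genes were named by rule: all members, the nearest protein-coding gene of each window peak, and up to 4, 2, 2 and 4 genes per further list (peaks in both libraries, in NKT only, in PLZF-transgenic only, in neither). Some genes that this rule names were left out of the text. Of 36 further effector genes, Gnly was not matched. The members and lists were chosen with earlier results of these data known. Motifs were planned only for promoters under a peak; as no member had one, they were searched in the promoters of all matched members, a choice made after seeing the data, as were the class of genes with short bodies and the distances to the nearest peak. Python 3.11.15, pandas 2.3.3 and SciPy 1.17.1 were used. Alternatives were other windows, any overlap in place of midpoints, peaks at or above the median score, overlapping peaks only, stricter overlap and other nearest-gene rules.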

Additional observations from a re-analysis of the deposited data

How the results depend on the processing

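The number of loci with a peak depended on the window. It was 2 in the NKT library and 3 in the PLZF-transgenic library at 100 kb. It became 0 and 0 in gene bodies and at 10 kb, 0 and 1 at 50 kb, and 6 and 7 at 200 kb. The number of peaks, 3 and 5, became 0 and 0, 0 and 0, 0 and 1, and 6 and 12 in the same windows. With only peaks at or above the median score of their list, 1 locus and 1 peak were left in each library. With only peaks that overlap the other list, 2 loci and 2 peaks were left in each library. The share of all protein-coding genes was not computed for either of these filters, which shorten the whole list. The drops therefore cannot be read as a property of the members. The 2 overlapping peaks of each library became 1 with a reciprocal overlap of 50%. Counting any overlap with the window, or midpoints within 1 kb, gave the same counts, and no nearest-gene rule tried made a member the nearest gene (0 in each library). The share for all protein-coding genes was not computed for the nearest-gene rules either. The rule by transcription starts used the 17492 protein-coding genes with a start in the promoter table, which holds neither Rad50 nor Il10. It could thus not name Rad50, whose window held 2 peaks in each library. No paired analysis was possible because each group had 1 library and no test was made. Depth is unknown, so a weak site can be missing from either list, and 6 of the 8 window peaks scored below the median of their list.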

Other observations

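The stretch of chromosome 14 that holds Gzmb also holds the granzyme genes Gzmc, Gzmd, Gzme, Gzmf, Gzmg and Gzmn, proteases of the granules of killer cells. None of the 6 had a peak within 100 kb in either library, as is true of 52.2% of all protein-coding genes, and the 6 share 1 stretch. Their nearest peaks lay between 393 kb (Gzme) and 507 kb (Gzmc) away in the NKT library and between 238 kb (Gzme) and 352 kb (Gzmc) in the PLZF-transgenic library. The granzyme genes outside this cluster gave other values. Gzmm, on chromosome 10, had a peak within 100 kb in both libraries (scores of 102 in NKT and 88.2 in PLZF-transgenic, at 87.0 kb and 86.9 kb), as did 31.0% of all protein-coding genes. That peak lay inside Fstl3 and Prss57, whose annotated spans overlap there. Gzmk had a peak in the PLZF-transgenic library alone.

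Il17f, Il21 and Il3, further cytokine genes next to a member, also had no peak within 100 kb in either library. Among all protein-coding genes 52.2% had none in either. Other cytokine genes went the other way. Il5, beyond Rad50, held 2 peaks in each library, which the window of Rad50 shares. Il22, on the chromosome of Ifng but outside its window, held 1 in each. Il17f, next to Il17a, was 148 kb from the nearest NKT peak and 201 kb from the nearest PLZF-transgenic peak. Il21, next to Il2, was 369 kb and 368 kb away, and Il3, next to Csf2, 255 kb and 109 kb. Il17f, Il21, Il3 and Il5 share their stretch with the member and are not separate observations.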
